A study of Mus musculus with 9 samples.

Results

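The genes of 5 steroid hormone receptors and of the 5-alpha reductases were followed in mouse prostate organoids grown with and without a Wnt agonist and an androgen. The 8 genes were taken by name from the 49585 genes in the deposited tables: Nr3c1, Nr3c2, Esr1, Esr2 and Pgr for the receptors, and Srd5a1, Srd5a2 and Srd5a3 for the reductases. Prostate basal cells of C57BL/6J mice had been sorted by flow cytometry and cultured as organoids, which were harvested on day 5. All organoids received advanced DMEM/F12 with B27, HEPES, GlutaMAX, penicillin-streptomycin, N-acetylcysteine, EGF at 50 ng/ml, the TGF-β type I receptor inhibitor A83-01 at 200 nM, the BMP antagonist Noggin at 100 ng/ml and the ROCK inhibitor Y-27632 at 10 µM. This medium alone is BM. The R group had R-spondin1, a protein that strengthens the response to Wnt ligands, added at 500 ng/ml. The RD7 group had R-spondin1 at the same dose and dihydrotestosterone (DHT) at 100 nM. Each group had 3 libraries, and no group received DHT without R-spondin1. The labels name no animal, sort or culture of origin for a library. The p-values therefore measure the spread between these libraries, which may be technical. Values are FPKM, the authors' reads of a gene scaled to its length and to the library's total, given as mean ± SD with n = 3 in each group.

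Steroid receptors are transcription factors that wait in a complex with heat-shock proteins or on chromatin, bind their hormone and then act on target genes. Nr3c1 encodes the glucocorticoid receptor and Nr3c2 the mineralocorticoid receptor, which also binds glucocorticoids with high affinity. Esr1 and Esr2 encode the estrogen receptors α and β, and Pgr the progesterone receptor. In the prostate, estrogen receptor α is best known from the stroma and from basal cells, and estrogen receptor β from the luminal epithelium. Srd5a1 and Srd5a2 encode the enzymes that convert testosterone to DHT, and Srd5a2 is the form classically tied to prostate development. Srd5a3 carries the same type of domain but is known mainly as polyprenol reductase, which makes the dolichol used for N-glycosylation. DHT, the androgen given here, is a product and not a substrate of these enzymes, and the B27 supplement in all 3 media contains corticosterone and progesterone, ligands of receptors in the set.

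BM 1 was the shallowest library, with 6505859 counted reads, and BM 2 the deepest, with 24141017. The limit that 0 reads allow, set at 3 reads, was 0.461 CPM (reads scaled to the library's total only) in BM 1 and no more than 0.188 CPM elsewhere. Such limits, and the intervals of read ratios, hold for counting error alone, since reads copied by PCR and not tagged are not independent molecules. All 7 basal markers examined were present in every group, with a summed level of 7209 to 8061 FPKM in BM, 9812 to 10396 in R and 8394 to 9467 in RD7. Luminal markers were present as well (3633 to 4577, 2879 to 3356 and 3922 to 4895 FPKM), so the libraries labelled basal cell organoids carried RNA of markers from both lists. These sums do not tell which cells made the RNA. Of 8 luminal markers, 4 were higher and 2 lower in RD7 against R, beside 13.4% and 17.7% of all genes. The number lower was 1 without BM 1, any R library, RD7 1 or RD7 3. Urothelial markers summed to 209 to 317 FPKM in BM, 37.9 to 45.6 in R and at most 25.4 in RD7, mainly Upk1a, Upk1b and Upk3a. Stromal markers summed to 18.6 to 26.9, 24.6 to 30.6 and at least 67.3 FPKM in BM, R and RD7, of which Dcn made up most in R and RD7, while Des and Lum were listed at 0 in BM and Lum also in RD7. The list did not rise with its sum. Of 9 stromal markers tested, 1 was higher and 5 lower in RD7 against R, beside 31.1% of all genes called. In RD7 against BM, 1 was higher and 4 lower, beside 47.0%. The number lower in RD7 against R was 2 or 3 without R 2, R 3 or any RD7 library. Immune markers summed to no more than 6.69 FPKM, and endothelial, neuroendocrine and seminal vesicle markers each to no more than 1.22 FPKM in any library. In such bulk samples, fewer cells that express a gene and less of its RNA per cell cannot be told apart.

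Srd5a1 was the most abundant of the 8 genes in all 9 libraries, at 40.6 to 49.0 FPKM, and lay between the 90.9th and the 93.2nd percentile of the genes above 0 in its library. In BM it was followed by Srd5a3 (5.88 ± 1.05 FPKM) and Nr3c1 (5.23 ± 0.250), whose ranges overlapped, and then by Esr1 (2.14 ± 0.575) and Srd5a2 (1.87 ± 0.895), whose ranges also overlapped. Nr3c2 (0.563 ± 0.200 FPKM) lay below Srd5a2 and above Esr2 (0.173 ± 0.107) in every BM library, and Esr2 overlapped with Pgr (0.0486 ± 0.0387). In R and RD7 the order from Srd5a1 through Srd5a3 and Nr3c1 to Esr1 was the same, with no overlap between neighbours. There Nr3c2 and Srd5a2 overlapped with each other at under 0.43 FPKM, and Esr2 and Pgr overlapped at under 0.04 FPKM. Of the 8 genes, 6 reached 0.5 CPM in at least 3 libraries and were tested, while Esr2 and Pgr did not. Srd5a2 passed this filter only through the 3 BM libraries.

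**Figure D1:**
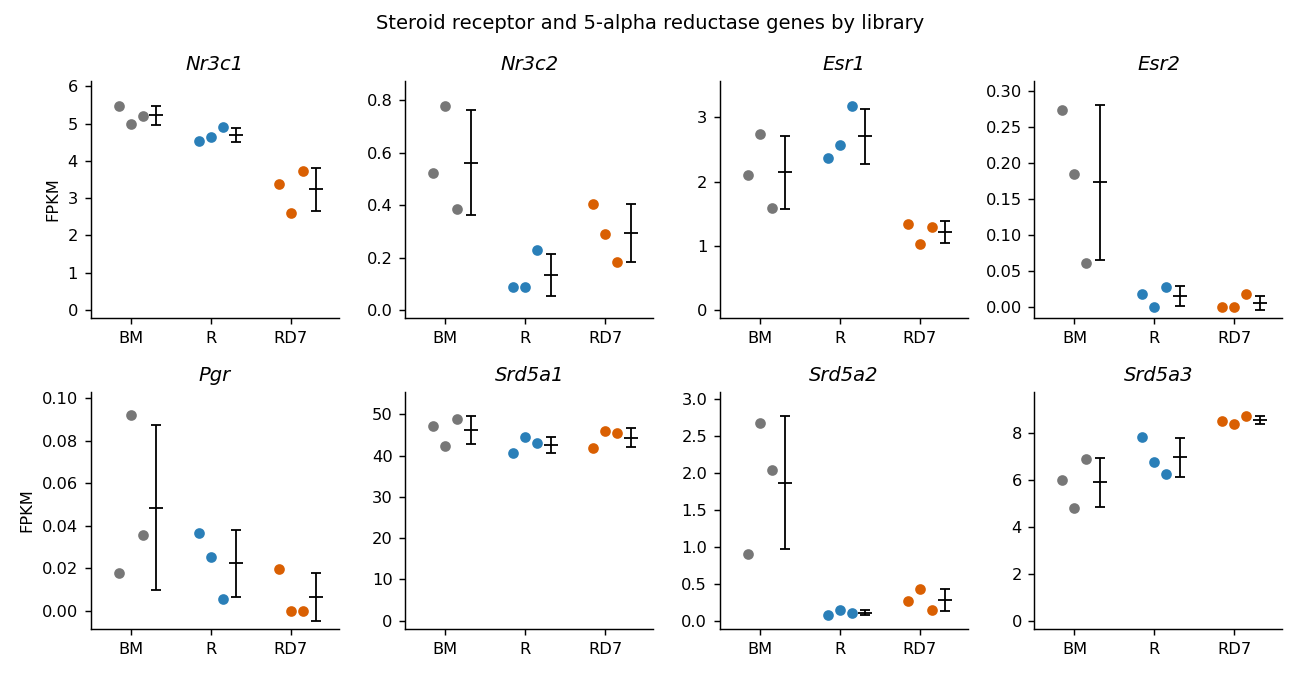
Level of each of the 8 genes in FPKM (vertical axes, linear and separate for each gene) in the BM, R and RD7 libraries. Points are libraries and bars beside them the mean ± SD of 3; Srd5a2 lay at 0.900 FPKM or more in BM and at 0.429 or less elsewhere, and Esr1 at 1.33 or less in RD7 and at 1.59 or more elsewhere.

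Nr3c1, the glucocorticoid receptor gene (ENSMUSG00000024431, chromosome 18, 39410545 to 39519421, minus strand, GRCm38), was lower in the organoids that received DHT. It stood at 5.49, 4.99 and 5.21 FPKM in BM 1 to 3, at 4.55, 4.65 and 4.90 in R 1 to 3 and at 3.37, 2.602 and 3.73 in RD7 1 to 3. The 3 groups did not overlap, with RD7 lowest and BM highest. Summed basal markers were lower in RD7 than in R too. Of the 7, Krt5, Trp63, Itga6 and Col17a1 were called lower and none higher, beside 17.7% and 13.4% of all genes. The number lower was 2 with no filter and without R 3, RD7 2 or RD7 3. The sum of the basal markers was lowest in BM, however, at 7209 to 8061 FPKM against 8394 to 9467 in RD7. In RD7 against BM, 4 of the 7 were called lower and 1 higher, beside 25.4% and 21.6% of all genes. The part of basal markers in the levels of Nr3c1 and Esr1 was not tested. Between R and RD7 the gene fell to 0.688 times its level, by 0.49 ± 0.15 (SE) on the log2(FPKM + 0.5) scale (limma adjusted p = 0.033). That call was lost without R 1, R 2, R 3 or RD7 2 (limma adjusted p of 0.079, 0.088, 0.106 and 0.112) and with median-of-ratios scaling (0.062), with the change between -0.58 and -0.36 over all settings. Against BM, RD7 was lower by a log2 change of -0.63 ± 0.15 (limma adjusted p = 0.0085). Of the other settings, 1 ended the call against BM, a fit after removal of the trend with gene length (-0.36, limma adjusted p = 0.063). The step from BM to R was not called (-0.14, 95% interval -0.47 to 0.20, limma adjusted p = 0.583).

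Nr3c2, the mineralocorticoid receptor gene (ENSMUSG00000031618, chromosome 8, 76899442 to 77245012, plus strand), was lower with R-spondin1. It stood at 0.522, 0.781 and 0.386 FPKM in BM, from 22, 122 and 49 reads, and at 0.0871, 0.0863 and 0.228 FPKM in R, from 9, 13 and 32 reads. All R libraries lay below all BM libraries, R 3 nearest to them, and the mean in BM was 4.20-fold that in R. On the log2(FPKM + 0.5) scale, which shrinks changes at such levels, Nr3c2 fell by 0.74 ± 0.16 (limma adjusted p = 0.018), and by between 0.46 and 2.16 over the other settings. It was no longer called once BM 1, BM 2, R 1 or R 2 was omitted (limma adjusted p = 0.050, 0.059, 0.080 and 0.080) and when no filter on low values was used (0.062). With DHT it stood at 0.406, 0.291 and 0.183 FPKM in RD7 1 to 3, a range that overlapped with R through R 3 and with BM through BM 3. Neither RD7 against R (0.32, 95% interval -0.05 to 0.69, limma adjusted p = 0.164) nor RD7 against BM (-0.42, -0.78 to -0.05, limma adjusted p = 0.061) was called. Removing the length trend brought the first under the threshold (0.40, limma adjusted p = 0.044), and leaving out BM 3 or RD7 1 the second (limma adjusted p of 0.023 and 0.041). Of its exon bases, 3.82% overlap the antisense gene Gm10649, whose reads cannot be separated without strand.

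Within a library, the glucocorticoid receptor transcript outnumbered the mineralocorticoid receptor transcript by 10.5, 6.39 and 13.5 times in BM 1 to 3 and by 52.2, 53.9 and 21.5 times in R 1 to 3. In RD7 the ratio of Nr3c1 to Nr3c2 was 8.31, 8.94 and 20.4. R lay above both other groups without overlap, and RD7 overlapped with BM. No test was made of this ratio, which carries the counting error of the few Nr3c2 reads in R.

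Esr1, the gene of estrogen receptor α (ENSMUSG00000019768, chromosome 10, 4611593 to 5005614, plus strand), was lower with DHT by more than the spread between libraries. Its level was 2.36, 2.57 and 3.18 FPKM in R 1 to 3 and 1.33, 1.02 and 1.30 in RD7 1 to 3. Every R library lay above every RD7 library, and the mean in R was 2.22-fold that in RD7. Esr1 fell by 0.90 ± 0.19 on the log2(FPKM + 0.5) scale (limma adjusted p = 0.0061), a call that held in all 19 other settings (log2 change -1.09 to -0.74, limma adjusted p up to 0.030). BM stood at 2.10, 2.74 and 1.59 FPKM, overlapping with R and above RD7. R against BM was not called (0.29, 95% interval -0.13 to 0.72, limma adjusted p = 0.350), except after removal of the length trend (0.58, 0.022). RD7 against BM was called lower (-0.60 ± 0.19, limma adjusted p = 0.026), but not without BM 1, BM 2, RD7 2 or RD7 3 (limma adjusted p of 0.063, 0.092, 0.089 and 0.054) and not after removal of the length trend (-0.22, 0.212), with no filter (0.052) or only the libraries of these groups (0.052). Esr1 has the longest merged exons of the 8 genes, 13661 bases.

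Esr2, the gene of estrogen receptor β (ENSMUSG00000021055, chromosome 12, 76120419 to 76177259, minus strand), was detected almost only in BM. It had 6, 15 and 4 reads in BM 1 to 3 (0.274, 0.184 and 0.0606 FPKM), 1, 0 and 2 reads in R and 0, 0 and 1 read in RD7. BM lay above R and RD7 without overlap. Per read counted, Esr2 was 10.1 times as frequent in BM as in R (25 against 3 reads, exact 95% interval 3.08 to 52.2) and 26.8 times as frequent as in RD7 (25 against 1, 4.39 to 1101). These intervals cover counting error alone and not the spread between libraries. The ratio to R was 6.24 without R 2 and 19.5 without R 3, and that to RD7 was 17.3 without RD7 2, while without RD7 3 no read was left in RD7. When all genes above 0 were fitted without a filter, RD7 against BM was called for Esr2 (log2 change -0.40 ± 0.11, limma adjusted p = 0.029) and R against BM was not (-0.37 ± 0.11, limma adjusted p = 0.106).

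Pgr, the progesterone receptor gene (ENSMUSG00000031870, chromosome 9, 8899833 to 8968611, plus strand), had few reads in every group. It had 1, 19 and 6 reads in BM 1 to 3, 5, 5 and 1 in R 1 to 3 and 3, 0 and 0 in RD7 1 to 3, so all groups overlapped. Summed over the groups, it was 2.86 times as frequent in BM as in R (26 against 11 reads, exact 95% interval 1.37 to 6.42) and 9.29 times as frequent in BM as in RD7 (26 against 3, 2.85 to 48.0). Without BM 2, which held 19 of the BM reads, these ratios were 1.48 (0.488 to 4.19) and 4.82 (1.10 to 28.9). The ratio of BM to RD7 was 6.00 without RD7 2, and without RD7 1 no read was left in RD7. Without a filter, Pgr was called in no comparison (limma adjusted p = 0.534 from BM to R, 0.641 from R to RD7 and 0.170 from BM to RD7).

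Added together, the 5 receptor genes came to 8.15 ± 0.783 FPKM in BM, 7.58 ± 0.679 in R and 4.76 ± 0.732 in RD7. All 3 RD7 libraries (3.92 to 5.23 FPKM) lay below all others (7.05 to 8.78). Nr3c1 made up 56.8% to 71.6% of this sum in the 9 libraries and Esr1 21.8% to 38.2%. The share of Esr1 was 33.5% to 38.2% in R and 24.8% to 26.1% in RD7, and the ratio of Nr3c1 to Esr1 was 1.76 ± 0.198 in R and 2.65 ± 0.193 in RD7, without overlap.

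Srd5a1, the gene of the type 1 enzyme (ENSMUSG00000021594, chromosome 13, 69573449 to 69611442, minus strand), did not pass the test in any comparison. It stood at 47.1, 42.4 and 49.0 FPKM in BM 1 to 3, 40.6, 44.4 and 43.1 in R and 41.8, 46.0 and 45.4 in RD7, with all 3 groups overlapping. The 95% interval of its log2 change was -0.37 to 0.15 from BM to R, -0.20 to 0.31 from R to RD7 and -0.31 to 0.20 from BM to RD7 (limma adjusted p of 0.571, 0.751 and 0.710). These intervals are the narrowest of the 6 tested genes, and each included 0. Of its exon bases, 16.4% are shared with Gm17108 on the same strand.

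Srd5a2, the gene of the type 2 enzyme (ENSMUSG00000038541, chromosome 17, 74016955 to 74047916, minus strand), was present in BM and nearly lost in both media with R-spondin1. It stood at 0.900, 2.67 and 2.03 FPKM in BM 1 to 3, at 0.0734, 0.151 and 0.108 in R and at 0.262, 0.429 and 0.139 in RD7. These levels came from 5, 55 and 34 reads in BM, from 1, 3 and 2 in R and from 4, 7 and 2 in RD7. Every BM library lay above every other library, and R and RD7 overlapped. Srd5a2 fell by 1.88 ± 0.26 on the log2(FPKM + 0.5) scale between BM and R (limma adjusted p = 0.0012) and by 1.54 ± 0.26 between BM and RD7 (limma adjusted p = 0.0016). The gene entered this test only because of its BM level. In the fit of all genes above 0, which does not depend on that, the adjusted p by limma was 0.0074 and 0.0071. It was called in both comparisons in all 18 other settings that tested it, with a log2 change of -3.87 to -1.32 for R against BM and -2.72 to -1.12 for RD7 against BM. Per read counted, it was 19.0 times as frequent in BM as in R (94 against 6 reads, exact 95% interval 8.40 to 53.0) and 7.75 times as frequent in BM as in RD7 (94 against 13, 4.32 to 15.1). RD7 exceeded R by 2.45 times in reads (0.868 to 7.85), and that difference was not called (0.33, 95% interval -0.26 to 0.92, limma adjusted p = 0.365). The authors' FPKM for Srd5a2 imply a gene length of 854 bases, against 1605 in the GENCODE M21 annotation, so its level beside other genes would be lower on the longer length. Of its exon bases, 8.97% overlap CT025731.1 on the same strand.

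Upk1a, Upk1b and Upk3a were called lower in R against BM, as were Srd5a2 and Nr3c2, while Krt20 was called higher and Upk2 not called. Of the 5 urothelial markers, 3 were thus lower and 1 higher, beside 5.64% and 4.38% of all genes. Their sum went from 209 to 317 FPKM in BM down to 37.9 to 45.6 in R. In RD7 the sum was lower still, at most 25.4 FPKM. The means of Nr3c2 and Srd5a2 were higher in RD7 than in R instead (0.293 against 0.134 FPKM and 0.276 against 0.111). Neither of these 2 differences was called. The part of urothelial cells in the levels of Srd5a2 and Nr3c2 was not tested.

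Srd5a3, the polyprenol reductase gene (ENSMUSG00000029233, chromosome 5, 76140271 to 76155504, plus strand), was higher in RD7 than in BM. It stood at 5.99, 4.79 and 6.88 FPKM in BM 1 to 3, at 7.83, 6.77 and 6.23 in R and at 8.50, 8.37 and 8.70 in RD7. RD7 lay above both other groups, which overlapped with each other. Srd5a3 rose 1.45-fold from BM to RD7, by 0.51 ± 0.16 on the log2(FPKM + 0.5) scale (limma adjusted p = 0.023). The call was lost without BM 2, RD7 2 or RD7 3 (limma adjusted p of 0.079, 0.056 and 0.063) and with only the libraries of these groups in the fit (0.054). Neither step on its own was called, with a log2 change of 0.23 (95% interval -0.12 to 0.58, limma adjusted p = 0.376) for R against BM and 0.28 (-0.07 to 0.63, limma adjusted p = 0.197) for RD7 against R.

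Srd5a1 made up 82.7% to 87.2% of the summed level of the 3 reductase genes in each library. Srd5a2 made up 1.67%, 5.35% and 3.51% in BM 1 to 3, between 0.151% and 0.294% in R and between 0.256% and 0.783% in RD7. The share of Srd5a3 was 9.59% to 11.9% in BM, 12.6% to 16.1% in R and 15.3% to 16.8% in RD7. The ratio of Srd5a1 to Srd5a2 was accordingly 15.9 to 52.3 in BM, 294 to 553 in R and 107 to 328 in RD7, so that BM stood apart while R and RD7 overlapped. The ratio of Srd5a1 to Srd5a3 was 7.12 to 8.87 in BM, above the 5.18 to 6.92 of R and the 4.91 to 5.50 of RD7.

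**Figure D2:**
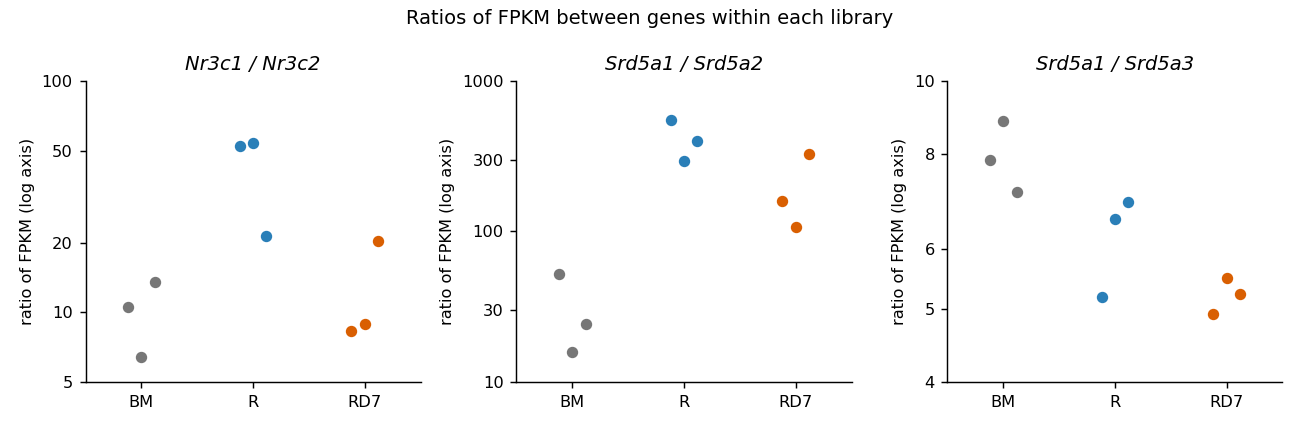
Ratios of FPKM between pairs of the genes within each library (vertical log axes), by group, with 1 point for each library. The ratio of Nr3c1 to Nr3c2 was highest in R (21.5 to 53.9), and that of Srd5a1 to Srd5a2 was 52.3 or less in BM and 107 or more in the media with R-spondin1.

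Counted by comparison, 2 of the 6 tested genes were called lower and none higher in R against BM (Nr3c2 and Srd5a2), where 10.0% of the 15868 genes tested were called, 4.38% higher and 5.64% lower. In RD7 against R, again 2 were lower and none higher (Nr3c1 and Esr1), where 31.1% of all genes were called, 13.4% higher and 17.7% lower. In RD7 against BM, 3 were lower and 1 higher (Nr3c1, Esr1 and Srd5a2, and Srd5a3), where 47.0% were called, 21.6% higher and 25.4% lower. Srd5a2 passed the filter only through BM, where it is high, so its place in the first and last of these counts follows in part from the filter. Without it, 1 of 5 genes was called in R against BM and 3 of 5 in RD7 against BM. These counts were not tested against the shares over all genes. Each group is part of 2 of the comparisons, which are therefore not independent of each other. With 1 library left out, 1 to 2 of the genes were called in R against BM, 1 to 2 in RD7 against R and 2 to 5 in RD7 against BM. The lowest of these counts arose without BM 1, BM 2, R 1 or R 2 in the first, without R 1, R 2, R 3 or RD7 2 in the second, and without BM 2, RD7 2 or RD7 3 in the third. Among the 3 receptor genes tested, the median log2 change was -0.14 from BM to R, -0.49 from R to RD7 and -0.60 from BM to RD7. Over all tested genes it was 0.02, -0.09 and -0.07.

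**Figure D3:**
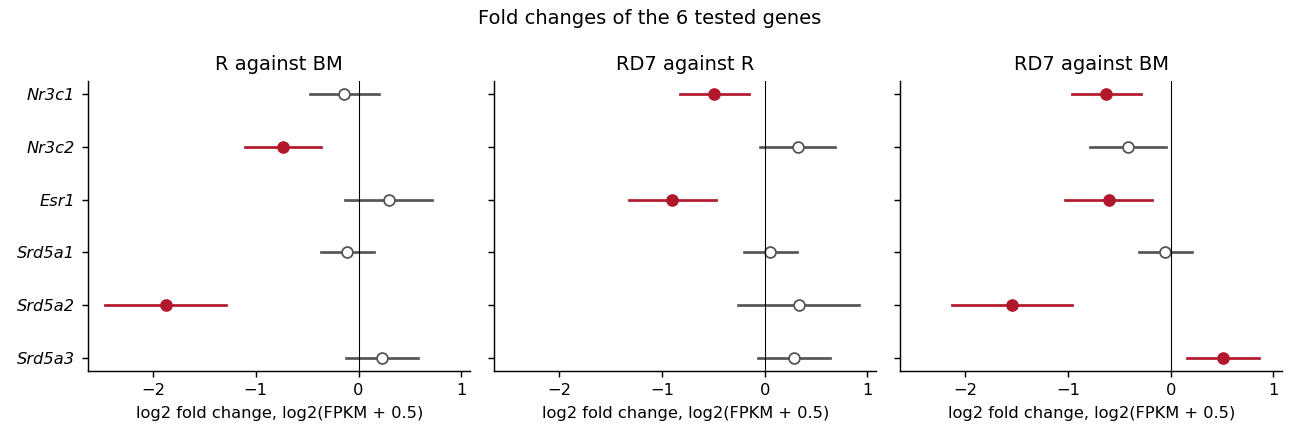
Log2 fold changes of the 6 tested genes on the log2(FPKM + 0.5) scale (horizontal axes), in 1 panel for each comparison. Lines are 95% intervals, unadjusted for the number of genes, and filled red points mark limma adjusted p under 0.05: Nr3c2 and Srd5a2 for R against BM, Nr3c1 and Esr1 for RD7 against R, and Nr3c1, Esr1, Srd5a2 and Srd5a3 for RD7 against BM.

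The stretches upstream of RefSeq transcript starts (GRCm38.p6) are shown for Nr3c2 and Srd5a2, which fell together in R against BM, and for Esr1, whose fall in RD7 against R held in every setting. Each is 150 bases free of GENCODE exons, written 5′ to 3′ on the strand of its gene. Capitals mark matches on either strand to the motifs searched: AGAACA (a half-site of glucocorticoid-type receptors), GGTCA (a half-site of estrogen-type and other nuclear receptors), CTTTGA (the core of TCF/LEF sites) and GGGCGG (the GC box). The stretch of Nr3c2 is chr8:76902138-76902287 on the plus strand, at a start inside the annotated gene, that of Srd5a2 chr17:74047917-74048066 on the minus strand, directly before the annotated gene, and that of Esr1 chr10:4710005-4710154 on the plus strand, also at a start inside the gene.
Nr3c2: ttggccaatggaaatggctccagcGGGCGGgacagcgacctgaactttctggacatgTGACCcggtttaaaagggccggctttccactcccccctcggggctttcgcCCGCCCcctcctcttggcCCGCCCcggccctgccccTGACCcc
Srd5a2: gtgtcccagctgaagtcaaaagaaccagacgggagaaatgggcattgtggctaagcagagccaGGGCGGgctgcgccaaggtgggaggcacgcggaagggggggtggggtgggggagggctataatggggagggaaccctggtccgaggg
Esr1: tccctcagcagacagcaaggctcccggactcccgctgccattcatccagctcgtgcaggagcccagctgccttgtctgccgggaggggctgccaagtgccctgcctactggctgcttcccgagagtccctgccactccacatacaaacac

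The Nr3c2 stretch held 2 matches to GGTCA and 3 to GGGCGG, the Srd5a2 stretch 1 match to GGGCGG, and the Esr1 stretch none. Over the 250 bases upstream of each start, AGAACA occurred in 16.1% of 32851 RefSeq promoters, GGTCA in 35.2%, CTTTGA in 13.8% and GGGCGG in 32.7%. None of the 8 entries matched to 7 of the genes held AGAACA, and only that of Pgr held CTTTGA. Nr3c2 and Esr2 held 2 matches to GGTCA each. Nr3c2 and Srd5a1 held 3 matches to GGGCGG, Srd5a2 and Srd5a3 held 2 and Pgr held 1, and neither entry of Esr1 held any of the motifs. The GC content of these windows was 68.4% for Nr3c2, 64.8% for Srd5a1, 63.2% for Srd5a2, 60.8% for Srd5a3, 59.6% and 47.6% for the entries of Esr1, 56.4% for Esr2 and 43.6% for Pgr, beside a median of 52.4% over all promoters. A match is a string of letters and does not show that a factor binds.

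Among enzymes that make or remove androgens and estrogens, 16 of the 31 listed genes found in the files passed the filter. In R against BM, 1 was higher and 2 lower, beside 10.0% of all genes called. In RD7 against R, 1 was higher and 3 lower, beside 31.1%, and in RD7 against BM 4 were higher and 5 lower, beside 47.0%. Hsd17b14, a 17β-hydroxysteroid dehydrogenase gene, fell as Srd5a2 did, from 2.81 ± 1.31 FPKM in BM to 0.143 ± 0.0325 in R (log2 change -2.28 ± 0.26, limma adjusted p = 2.9e-04), and stood at 0.149 ± 0.0911 in RD7. Like Srd5a2 it passed the filter only through BM, and in the fit of all genes above 0 its adjusted p by limma was 0.0024. Cyp1b1, whose enzyme hydroxylates estradiol, fell as Esr1 did, from 3.67 ± 0.453 FPKM in R to 1.39 ± 0.182 in RD7 (-1.14 ± 0.23, limma adjusted p = 0.0041). Both calls held in all other settings. The number called higher in RD7 against R moved between 0 and 3 over the settings (0 without R 2, R 3, RD7 2 or RD7 3, 2 without BM 2 or BM 3), and in R against BM between 0 and 3 (0 without BM 1, R 1 or R 2, 3 without BM 3), where the number lower was 1 without R 1, R 2 or R 3. The median log2 change of the 16 genes was -0.06 in R against BM and 0.07 in RD7 against R.

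Only 3 of 12 genes of glucocorticoid and mineralocorticoid metabolism passed the filter. Hsd11b1, which regenerates active glucocorticoid, did not pass it, and Hsd11b2, which inactivates glucocorticoid beside the mineralocorticoid receptor, stood at 0.286, 0.217 and 0.347 FPKM in the means of BM, R and RD7 and was not called. H6pd, whose enzyme supplies the NADPH that Hsd11b1 uses, fell from 16.4 ± 3.237 FPKM in BM to 6.48 ± 1.07 in R (log2 change -1.27 ± 0.26, limma adjusted p = 0.011, and 0.053, 0.055 and 0.050 without BM 1, R 1 or R 2). The efflux pump gene Abcb1b fell from 1.08 ± 0.174 FPKM in R to 0.389 ± 0.112 in RD7 (-0.83 ± 0.17, limma adjusted p = 0.0042), in every setting.

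Many genes known to respond to glucocorticoid or mineralocorticoid receptors were higher in RD7, where Nr3c1 was lower. Of 21 tested, 11 rose and 1 fell in RD7 against R, with a median log2 change of 0.87, beside 13.4% of all genes higher and a median of -0.09. In R against BM, 3 were higher and 2 lower, with a median of -0.04. Fkbp5, a chaperone that restrains steroid receptors, rose from 4.29 ± 0.737 FPKM in R to 109 ± 16.3 in RD7 (log2 change 4.52 ± 0.18, limma adjusted p = 9.2e-08). Sgk1, a kinase that raises epithelial sodium transport, rose from 40.0 ± 1.42 to 218 ± 28.2 FPKM (2.42 ± 0.13, limma adjusted p = 4.2e-07). Scnn1g, a sodium channel subunit and the 1 gene that fell, went from 3.85 ± 0.178 to 0.526 ± 0.335 FPKM (-2.13 ± 0.21, limma adjusted p = 5.0e-05). Several of these genes, Fkbp5 and Zbtb16 among them, are also known to respond to androgen, so the list does not report on one receptor. Zbtb16, 1 of the 11 that rose, lay at 0.116 FPKM or less in BM and R and at 4.31 or more in RD7. It thus entered the test through RD7, where it is high. Its call held in all 19 other settings, the fit with no filter among them. The list was chosen with earlier results of these data known, and its counts are descriptions. Over the other settings 9 to 14 rose in RD7 against R. In R against BM the number higher was 1 without BM 1, BM 2, R 1, R 2, R 3 or RD7 3, and the number lower was 4 without BM 3.

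Of 12 tested genes known to respond to estrogen or progesterone receptors, 1 rose and 2 fell in R against BM (10.0% of all genes called), 4 rose and 3 fell in RD7 against R (31.1%), and 5 rose and 3 fell in RD7 against BM (47.0%). Their median log2 changes were 0.01, -0.06 and 0.05, beside 0.02, -0.09 and -0.07 over all genes. The number higher in RD7 against BM was 3 without RD7 3. Single genes moved far more than these medians. Rasd1 changed most in RD7 against R, from 1.62 ± 0.0678 to 61.7 ± 8.18 FPKM. Its call (log2 change 4.87 ± 0.16, limma adjusted p = 1.8e-08) held in every setting. Ihh, a hedgehog ligand induced by progesterone in the uterus, fell from 1.37 ± 0.271 FPKM in BM to 0.0256 ± 0.0321 in R and rose to 1.01 ± 0.238 in RD7 (limma adjusted p of 4.6e-05 and 6.5e-05). The gene higher in R against BM, Xbp1 (limma adjusted p = 0.037), lost its call when BM 1, BM 2, any R library or RD7 3 was left out (0.171 at most), and without BM 3 the number higher was 2.

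Some genes of steroid receptors at membranes were lower with R-spondin1, and some of these were higher once DHT was added. Of 7 tested, 4 fell and none rose in R against BM, where 5.64% of all genes were lower, and 3 rose and none fell in RD7 against R, where 13.4% of all genes were higher. Their median log2 change was -0.79 and 0.41. Gper1, the G protein-coupled estrogen receptor gene, stood at 0.969, 1.31 and 1.41 FPKM in BM, at 0.321, 0.373 and 0.291 in R and at 7.03, 7.20 and 6.07 in RD7, without overlap between any groups. It fell by 1.05 ± 0.15 with R-spondin1 (limma adjusted p = 0.0015) and rose 20.6-fold from R to RD7 (3.13 ± 0.15, limma adjusted p = 2.6e-07), in the opposite direction to Esr1. Paqr6, a membrane progestin receptor gene, fell from 0.727 ± 0.135 FPKM in BM to 0.145 ± 0.0436 in R and rose to 0.791 ± 0.0990 in RD7 (limma adjusted p of 0.0010 and 2.3e-04). Its relative Paqr5 fell from 1.07 ± 0.0215 to 0.153 ± 0.0956 FPKM in R (limma adjusted p = 0.0024) and stood at 0.528 ± 0.292 in RD7. The rise of Paqr5 (limma adjusted p = 0.039) lost its call when BM 1, any R library, RD7 1 or RD7 3 was left out (0.138 at most). Paqr8 fell from 3.26 ± 0.633 FPKM in BM to 1.65 ± 0.125 in R (limma adjusted p = 0.021, and up to 0.092 without BM 1, BM 2, R 1 or R 2). With a filter of 1 FPKM, which does not test Paqr6, Gper1 alone was called higher in RD7 against R, and Paqr5 was not called (limma adjusted p = 0.062). Pgrmc1 and Pgrmc2, genes of progesterone receptor membrane components, were not called in any comparison.

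**Figure D4:**
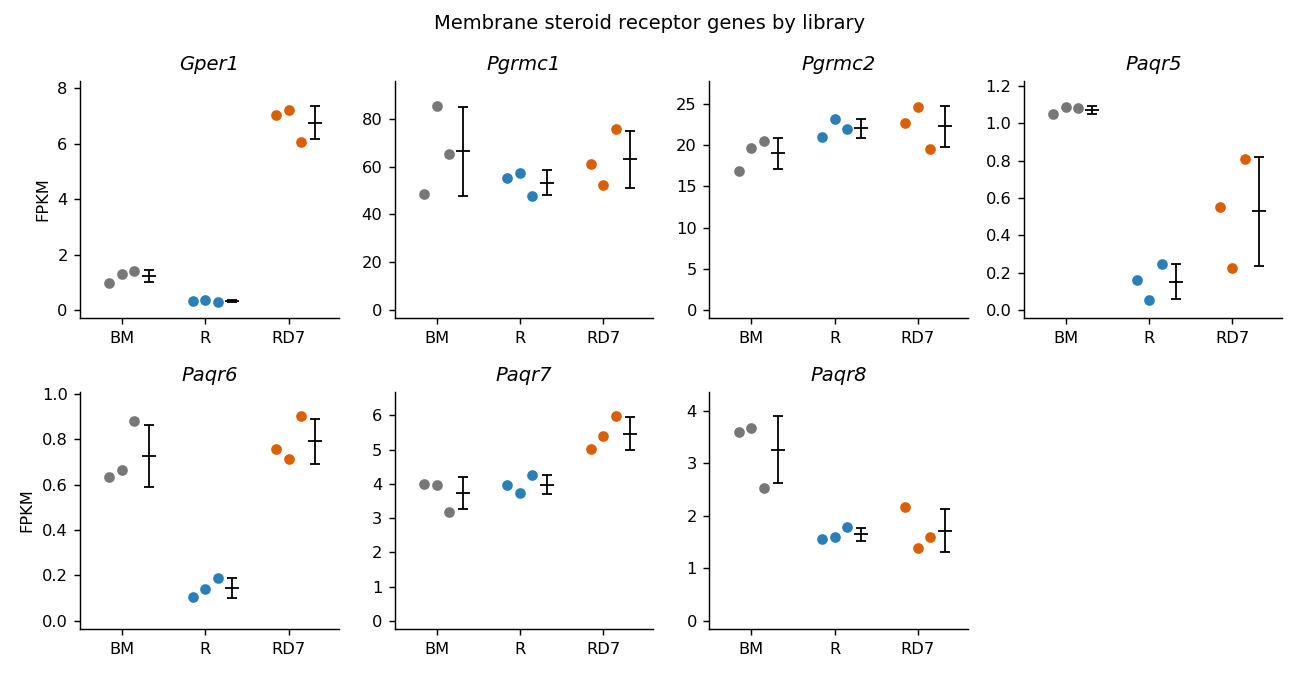
Level of the 7 tested genes of membrane steroid receptors in FPKM (vertical axes, linear and separate for each gene) by library, with the mean ± SD of 3 beside the points. Gper1 lay at 6.07 FPKM or more in RD7 and at 1.41 or less elsewhere, and Paqr6 at 0.190 or less in R and at 0.633 or more elsewhere.

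Receptor chaperones and coregulators were taken as further lists. Of 14 chaperone genes, none was called in R against BM by limma or limma-voom (2 at an unadjusted p under 0.05, and 4 called higher without BM 3), and 1 was higher, Fkbp5, and 2 lower in RD7 against R (31.1% of all genes called). In RD7 against BM 3 were higher and none lower (47.0% of all genes called), and 5 were higher without BM 3. The lower ones, Hspa8 and Stip1, were each not called with median-of-ratios scaling or limma-voom (limma adjusted p up to 0.136), and none was lower without R 1, R 2, R 3 or RD7 1. Of 18 coregulator genes, 2 were lower in R against BM (5.64% of all genes lower) and 3 in RD7 against R (17.7% lower). None was higher in these 2 comparisons, beside 4.38% and 13.4% of all genes. In RD7 against BM 2 coregulator genes were higher and 5 lower, beside 21.6% and 25.4% of all genes. The number higher there was 0 without BM 2 or RD7 3 and 1 without BM 1, any R library or RD7 2, and the number lower was 3 without BM 1, BM 2 or RD7 2, 8 without BM 3 and 10 without RD7 1. Kdm1a, a histone demethylase gene, fell from 32.9 ± 2.62 FPKM in R to 20.6 ± 3.04 in RD7 (log2 change -0.67 ± 0.16, limma adjusted p = 0.0098) in every setting. It was the only coregulator gene lower without R 1, R 2, R 3, RD7 2 or RD7 3, and the 2 of R against BM, Tgfb1i1 and Ppargc1a, were both lost without R 2 or R 3.

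The genes of dolichol and N-glycan precursor synthesis, the pathway of Srd5a3, were called mainly in RD7 against BM. Srd5a3 was higher in that comparison, which also had the most calls over all genes. Of 22 tested, none was called in R against BM by limma or limma-voom (4 at an unadjusted p under 0.05), beside 10.0% of all genes called. In RD7 against R, 1 was higher and 1 lower, beside 31.1% called. In RD7 against BM, 8 were higher and 1 lower, beside 47.0% called, 21.6% higher and 25.4% lower. Alg5, which makes dolichol-linked glucose, rose from 11.3 ± 2.90 FPKM in BM to 21.9 ± 3.08 in RD7 (log2 change 0.95 ± 0.19, limma adjusted p = 0.0037), with 15.1 ± 1.96 in R. Dpm2, a subunit of dolichol-phosphate mannose synthase, rose from 9.88 ± 4.21 to 19.8 ± 1.55 FPKM (1.04 ± 0.24, limma adjusted p = 0.0073). Tecr, an enoyl reductase gene with the same type of domain as the Srd5a genes, rose from 139 ± 43.3 to 261 ± 38.6 FPKM (0.94 ± 0.21, limma adjusted p = 0.0062). Without BM 2 the number higher was 4, without RD7 2 it was 3, and without BM 3 5 were higher in each of R against BM and RD7 against R.

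**Figure D5:**
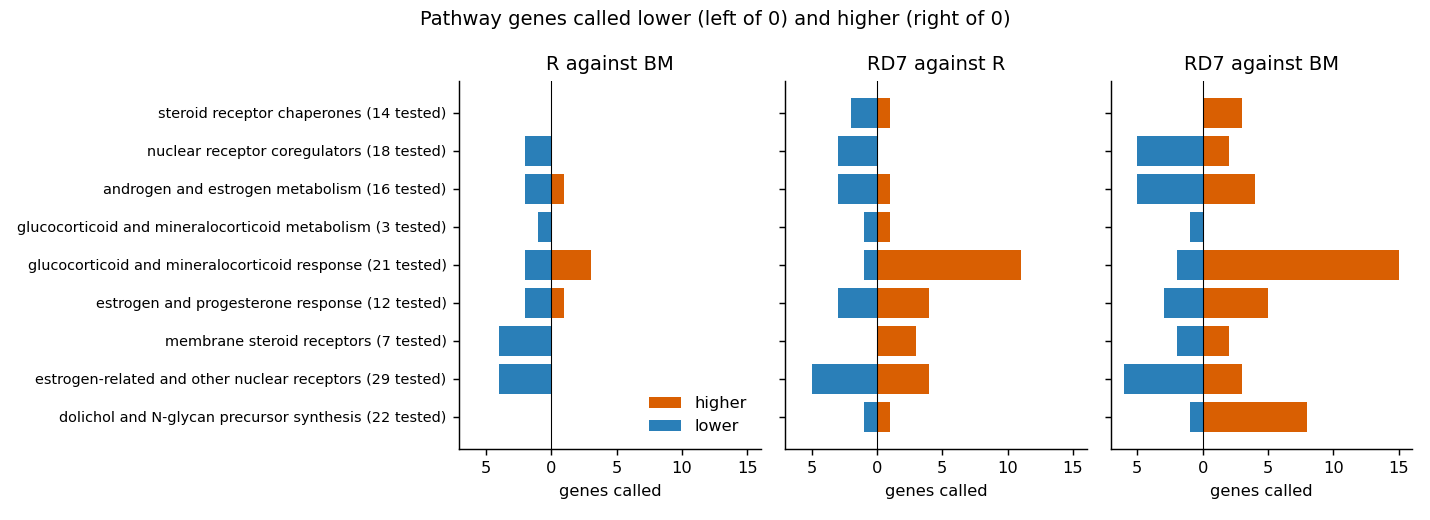
Number of genes called (horizontal axes) lower, left of 0, and higher, right of 0, on 9 lists of genes around the receptors and reductases, in 1 panel for each comparison. The glucocorticoid and mineralocorticoid response list had 11 higher and 1 lower of 21 in RD7 against R, and membrane steroid receptors 4 lower of 7 in R against BM.

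For each tested gene, the 3 genes most like it over the 9 libraries were found by Pearson correlation of log2(FPKM + 0.5). These are descriptions over 3 groups of 3 libraries that share depth and length effects. Nr3c1 was most like Caprin2 (r = 0.985), Mtss1 (0.982) and St3gal6 (0.982), and Nr3c2 like Igsf11 (0.967), Naip6 (0.966) and Lnx1 (0.963). Esr1 was most like Gpt2 (r = 0.986), Jun (0.979) and Vezt (0.977). Srd5a2 was most like Plscr2 (r = 0.979), Plekhb1 (0.960) and Meltf (0.958). Srd5a3 was most like Gm24757 (r = 0.983), Gm8730 (0.982) and Sin3b (0.981). Srd5a1 had the lowest correlations: Ctxn1 (r = 0.912), Isyna1 (0.873) and Pcdhb5 (0.860).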

How the data were processed

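RNA was sequenced in 9 libraries, 3 in each of BM, R and RD7, grouped by their treatment labels. Per the labels' protocols, cDNA was made with a SMART-Seq kit and libraries with NEBNext Ultra II, which as used keep no strand. The deposited values are FPKM. Per the submitters' processing notes, the authors used GRCm38 with STAR 2.6.1a, CASAVA 1.9, edgeR 3.24.1 and featureCounts, while the annotation release and strand setting are not given in the sources used here.

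Symbols came from GENCODE M21 by gene ID (99.5% matched). Read counts were recovered from the deposited FPKM, the step of each library and gene lengths: 22971 of 26813 genes above 0 came out whole within 0.01 read, lengths were fitted for 3841, and at least 99.989% of each total was recovered. For Nr3c1, Srd5a1 and Srd5a2 the fitted lengths were 7425, 2881 and 854 bases, against 7684, 2909 and 1605. Values of log2(FPKM + 0.5) were tested with limma 3.58.1 in R 4.3.3 (group means, trend, robust, two-sided, 6 residual degrees of freedom) for the 15868 genes reaching 0.5 CPM in 3 or more libraries. P-values were adjusted by Benjamini-Hochberg, and adjusted p under 0.05 was a call. Simulated data had these libraries' depths and each gene's mean over all libraries, with only a small part of the 15868 genes changed. There, 2-fold changes were recovered at 27.9% from BM to R, 25.8% from R to RD7 and 26.9% from BM to RD7. For 4-fold changes the rates were 88.2%, 86.9% and 87.0%, and 3.92% to 6.38% of calls were false. Many more genes were called in the data, which loosens the Benjamini-Hochberg cut-off, so these rates do not carry over to the comparisons made here. Other pseudocounts, filters, scalings, fits and omitted libraries were tried.

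The 8 genes and the 10 surrounding lists were chosen with earlier results of these data known. From each list, up to 4 called genes of largest change could be named in a comparison, and from these mainly genes whose call held in each setting were taken. Scnn1g in RD7 against R and Hsd11b1, Hsd11b2, Pgrmc1 and Pgrmc2 were named after their values were seen. Sts was not matched. Fkbp5 stands on 2 lists. RefSeq promoters (250 bases upstream) were searched for 4 motifs on both strands, and Nr3c1 had no entry. Python 3.11.15, pandas 2.3.3, scipy 1.17.1 and matplotlib 3.10.9 were used.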

Additional observations from a re-analysis of the deposited data

How the results depend on the processing

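The lower Srd5a2 in both media with R-spondin1 and the lower Esr1 in RD7 against R, held in each alternative that tested them, though Srd5a2 passed the filter only through BM. Read ratios without each library were added after seeing the data. The number of the 6 genes called in R against BM was 1 with no filter and 0 with a filter of 1 FPKM, which tests neither Nr3c2 nor Srd5a2. In RD7 against R it was 1 with median-of-ratios scaling. In RD7 against BM it was 2 with only the libraries of these groups and 2 with the length trend removed. Leaving out 1 library gave 1 to 2, 1 to 2 and 2 to 5 genes, and over all genes 930 to 3402, 3186 to 5739 and 4836 to 8519 calls, against 1590, 4936 and 7455. The 3402 calls without BM 3 were 2089 higher and 1313 lower, against 695 and 895. In RD7 against R, 2120 genes were higher and 2816 lower, but 2532 and 2191 with median-of-ratios scaling and 2763 and 2439 with limma-voom. Changes that were not called reversed sign in Nr3c1 for R against BM (0.046), Srd5a1 for RD7 against R (-0.018) and Srd5a2 for RD7 against R (-0.041) with the length trend removed, and in Srd5a1 for RD7 against BM with median-of-ratios scaling (0.018) and limma-voom (0.035). The cause was not tested.

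Deviations from the group means did not follow replicate numbers: they correlated at -0.52 to 0.27 between libraries of the same number and at -0.58 to 0.58 between others. With 3 libraries in each group, this cannot tell whether libraries of the same number share an origin, which the labels do not give. With the number as a replicate block, 2, 1 and 3 of the 6 genes were called in the steps from BM to R, R to RD7 and BM to RD7, and 1161, 3884 and 6298 of all genes. Nr3c1 in RD7 against R (limma adjusted p = 0.062) and Esr1 in RD7 against BM (0.057) were the calls lost. Few reads limit Esr2, Pgr, Srd5a2 and Nr3c2.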

Other observations

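Of 29 tested genes of other nuclear receptors, 4 fell and none rose in R against BM, where 5.64% of all genes were lower and 4.38% higher. In RD7 against R 4 rose and 5 fell, shares near the 13.4% higher and 17.7% lower over all genes. The median log2 changes were -0.04 and -0.21, beside 0.02 and -0.09 over all genes. Pparg, a fatty acid sensor, fell from 15.2 ± 1.41 FPKM in BM to 5.93 ± 0.307 in R and to 2.42 ± 0.356 in RD7 (limma adjusted p of 2.4e-04 and 2.1e-04). Rarb, a retinoic acid receptor gene, fell from 14.7 ± 1.07 to 6.32 ± 0.508 and to 2.73 ± 0.873 FPKM (limma adjusted p of 0.0036 and 0.0020). Nr2f2, an orphan nuclear receptor gene, fell from 4.27 ± 0.526 FPKM in BM to 2.16 ± 0.107 in R and rose to 5.08 ± 0.479 in RD7 (limma adjusted p of 0.0045 and 3.9e-04). Vdr, the vitamin D receptor gene, rose from 11.5 ± 0.908 FPKM in R to 27.0 ± 4.17 in RD7 (limma adjusted p = 7.9e-04). The calls of Pparg, Rarb and Vdr, and that of Nr2f2 in R against BM, held in all 19 other settings. The number lower in R against BM was 7 without BM 3, and in RD7 against R it was 2 or 3 without R 1, R 2, R 3, RD7 2 or RD7 3.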
